A study of Mus musculus with 28 samples.

Results

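The neutrophil granule and alarmin genes S100a8, S100a9, Lcn2, Ngp, Camp and Retnlg were measured in the ventricular myocardium of 28 mice. They were taken by name from a table of 45513 genes. All 6 members had a row, 5 under their symbol and Retnlg, which the table spells Retnig, by its identifier. The set was selected on measured values: S100a9 had stood out in an earlier comparison of CKD with sham in these same libraries. Every comparison of CKD with sham is therefore given below as a description, with no test of the members.

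All mice were male adult C57BL/6 animals on a diet with 1% hydroxyproline, a precursor of oxalate, and 0.5% calcium. Surgery began at 6 weeks of age and was either a nephrectomy in stages that removes most of the renal mass and induces chronic kidney disease (CKD), or a sham operation. On day 7 each mouse was gavaged with 200 µl of culture medium, with the oxalate-degrading gut bacterium Oxalobacter formigenes (Oxf) or without it (vehicle). The groups were CKD-Oxf (7 mice), CKD-vehicle (6), sham-vehicle (10) and sham-Oxf (5). The design text gives 10 mice per group, and the other mice were not analysed here. Hearts had been perfused with buffered saline before collection. The series title asks about cardiac remodelling after colonization.

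S100A8 and S100A9 are calcium-binding proteins that pair as calprotectin, fill the cytosol of neutrophils and are released as alarmins that act through TLR4 and the receptor RAGE. LCN2 (neutrophil gelatinase-associated lipocalin) binds bacterial siderophores, is stored in specific granules and is also made by injured epithelium and other cells. NGP and the cathelicidin CAMP are made in the marrow as neutrophils mature and are packed into specific granules. Retnlg encodes a resistin-like protein of marrow and blood neutrophils. Mature neutrophils carry transcripts of S100a8, S100a9 and Retnlg at high levels, whereas the transcripts of primary granule enzymes are largely lost before the cells leave the marrow.

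S100a8 and S100a9 are neighbours on chromosome 3 (GRCm38, GENCODE M21). S100a8 (ENSMUSG00000056054) spans 90668978 to 90670035 on the plus strand and S100a9 (ENSMUSG00000056071) spans 90692632 to 90695721 on the minus strand, with 22596 bases and no other gene start between them. Lcn2 (ENSMUSG00000026822) lies on chromosome 2 from 32384633 to 32388252 on the minus strand. Camp (ENSMUSG00000038357) lies on chromosome 9 from 109847379 to 109849617 on the minus strand, and Ngp (ENSMUSG00000032484) on the same chromosome from 110419747 to 110423012 on the plus strand, with 22 gene starts between them. Retnlg (ENSMUSG00000022651) lies on chromosome 16 from 48872621 to 48874496 on the plus strand. All 6 are protein-coding, and no other annotated gene overlaps any of them.

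Sequence before the start is shown for the paired alarmin genes, whose counts were compared library by library, and for Lcn2, the member with the most counts. The 250 bases before the start of the RefSeq transcript (build GRCm38.p6) were searched on each gene. The RefSeq starts of S100a8, Lcn2, Ngp and Camp lie inside the GENCODE spans of these genes, and 93 bases of the S100a8 window and 197 of the Lcn2 window lie in GENCODE exons. Printed is the longest stretch of each window outside those exons, read on the gene's strand: 157 bases for S100a8 (chr3:90668821-90668977), all 250 for S100a9 (chr3:90695722-90695971) and 53 for Lcn2 (chr2:32387798-32387850). Capitals mark matches to 4 letter patterns.
S100a8: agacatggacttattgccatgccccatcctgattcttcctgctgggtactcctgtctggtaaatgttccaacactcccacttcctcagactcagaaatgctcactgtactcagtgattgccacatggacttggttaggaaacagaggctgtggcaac
S100a9: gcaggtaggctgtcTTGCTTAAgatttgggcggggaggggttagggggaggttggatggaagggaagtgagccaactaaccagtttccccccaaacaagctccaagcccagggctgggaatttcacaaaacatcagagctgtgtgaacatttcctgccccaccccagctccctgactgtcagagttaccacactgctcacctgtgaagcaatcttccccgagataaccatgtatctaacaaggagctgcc
Lcn2: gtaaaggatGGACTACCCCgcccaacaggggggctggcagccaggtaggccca
The patterns were the TATA box TATAAA on the gene's strand, and on both strands the C/EBP pattern TTGCNNAA, the E-box CACGTG and the NF-kB pattern, which is GGG, any 5 bases and CC. C/EBP factors drive granule genes in developing neutrophils, and NF-kB drives Lcn2 in inflammation. The S100a8 window held TATAAA, starting 30 bases before the RefSeq start and so outside the printed stretch, which 7.59% of the 32851 promoter windows of this length held. The S100a9 window held TTGCTTAA and the Lcn2 window TTGCTCAA, both matches to the C/EBP pattern, which 9.56% of windows held. The Lcn2 match also lies outside the printed stretch. The Lcn2 window also held GGACTACCCC, a match to the NF-kB pattern on the other strand, which 45.8% of windows held. Of the windows of the other 3 members, those of Ngp and Retnlg held the C/EBP pattern. The E-box, held by 6.02% of windows, was in none of the 6. A match is a run of letters, not a measured binding site.

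The 28 libraries held 19.8 to 65.4 M counts (M for mega). Sham-Oxf replicate 1 stood apart, with the lowest total and 15879 genes with a count, against 27128 to 33995 in the other 27. The 27128 belonged to CKD-Oxf replicate 4, the library with the most S100a9 counts. One count was worth 0.0185 to 0.0474 CPM (counts scaled to the usual common library size after TMM factors). A count of 0 allows up to 3 counts, or 0.0554 to 0.142 CPM by library, for counting error only. Cardiomyocyte markers, with Myh6 and Ttn the most abundant, summed to 46250 to 94690 CPM, so the tissue label held. Each library is 1 mouse.

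Per kilobase of exon, the members were among the low genes of these hearts. Mean levels over the 28 libraries were 0.562 CPM per kilobase for S100a9, 0.356 for Lcn2, 0.265 for S100a8, 0.162 for Camp, 0.0634 for Ngp and 0.0617 for Retnlg. On the same scale the cardiomyocyte myosin Myh6 stood at 2724, the macrophage and neutrophil lysozyme Lyz2 at 34.3 and the receptor for granulocyte colony-stimulating factor, Csf3r, at 0.743. S100a1, the S100 gene of heart muscle, stood at 99.0.

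**Figure D1:**
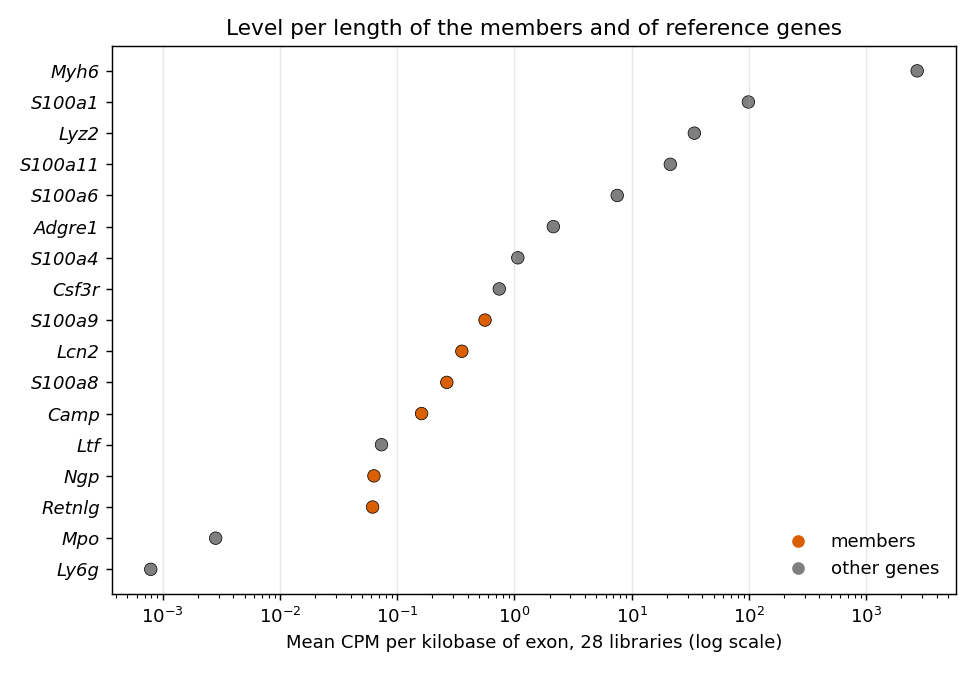
Mean level per kilobase of exon (CPM per kilobase, log axis) over 28 libraries for the 6 members (orange) and for reference genes (grey). The members lie between 0.0617 and 0.562, below Csf3r at 0.743 and Lyz2 at 34.3, and above Mpo and Ly6g.

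S100a9 was the member whose counts varied most by group. Sham-vehicle libraries held 0 to 17 counts with a median of 4. CKD-vehicle libraries held 0 to 36 with a median of 13. The 5 sham-Oxf libraries, replicates 1 to 5, held 0, 1, 2, 3 and 0 counts, and the CKD-Oxf libraries held 3 to 101 with a median of 14. CKD libraries thus held more S100a9 than sham libraries on the medians, but with vehicle the groups overlapped, and CKD-vehicle replicate 5 had a count of 0. With Oxf the lowest CKD library, at 0.0865 CPM, lay narrowly above the highest sham library, at 0.0811 CPM. Over all 24273 tested genes, 0.144% had every CKD-Oxf library above every sham-Oxf library. The rule used this contrast, so nothing is read from that share.

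The S100a9 mean was highest in CKD-Oxf, at 0.641 ± 0.902 CPM (SD, n = 7), followed by CKD-vehicle at 0.358 ± 0.320 CPM (n = 6). The sham groups were lower, at 0.140 ± 0.128 CPM with vehicle (n = 10) and 0.0327 ± 0.0364 CPM with Oxf (n = 5). In each step of this order the difference was smaller than the larger of the neighbouring SDs. CKD-Oxf replicate 4 alone held 101 of the 339 S100a9 counts in the series, or 29.8%, and without it the CKD-Oxf mean was 0.308 ± 0.205 CPM (n = 6), below that of CKD-vehicle.

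S100a8, the partner of S100a9, was lower over all libraries, and the order of its group means depended on 1 library. Sham-vehicle libraries held 0 to 6 counts (median 2.5), CKD-vehicle libraries 1 to 17 (median 7) and CKD-Oxf libraries 1 to 19 (median 3). The sham-Oxf libraries held 47, 1, 0, 3 and 0 counts. The value of 47, the highest of all 28, came from sham-Oxf replicate 1, which had 0 counts for each of the other 5 members. With this library the sham-Oxf mean was 0.467 ± 0.986 CPM (n = 5), the highest of the 4 groups, and without it 0.0259 ± 0.0383 CPM (n = 4), the lowest. The remaining means were 0.172 ± 0.177 CPM in CKD-Oxf, 0.166 ± 0.111 in CKD-vehicle and 0.0619 ± 0.0507 in sham-vehicle. Without sham-Oxf replicate 1 the 4 means thus ran in the same order as those of S100a9. The medians did not, since that of CKD-vehicle was highest.

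Across libraries the high values of the alarmin pair mostly fell together, with sham-Oxf replicate 1 as the exception. Of the 5 libraries highest for S100a9 and the 5 highest for S100a8 in CPM, 4 were shared. S100a9 had more counts than S100a8 in 19 libraries, fewer in 6 and the same number in 3. After subtracting group means, the Spearman rho of the pair was 0.415 over 28 libraries and 0.501 without sham-Oxf replicate 1. The libraries share their depth and scaling in both genes, and rho is a description. Among the other 14 pairs of members rho lay between -0.217 and 0.317.

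**Figure D2:**
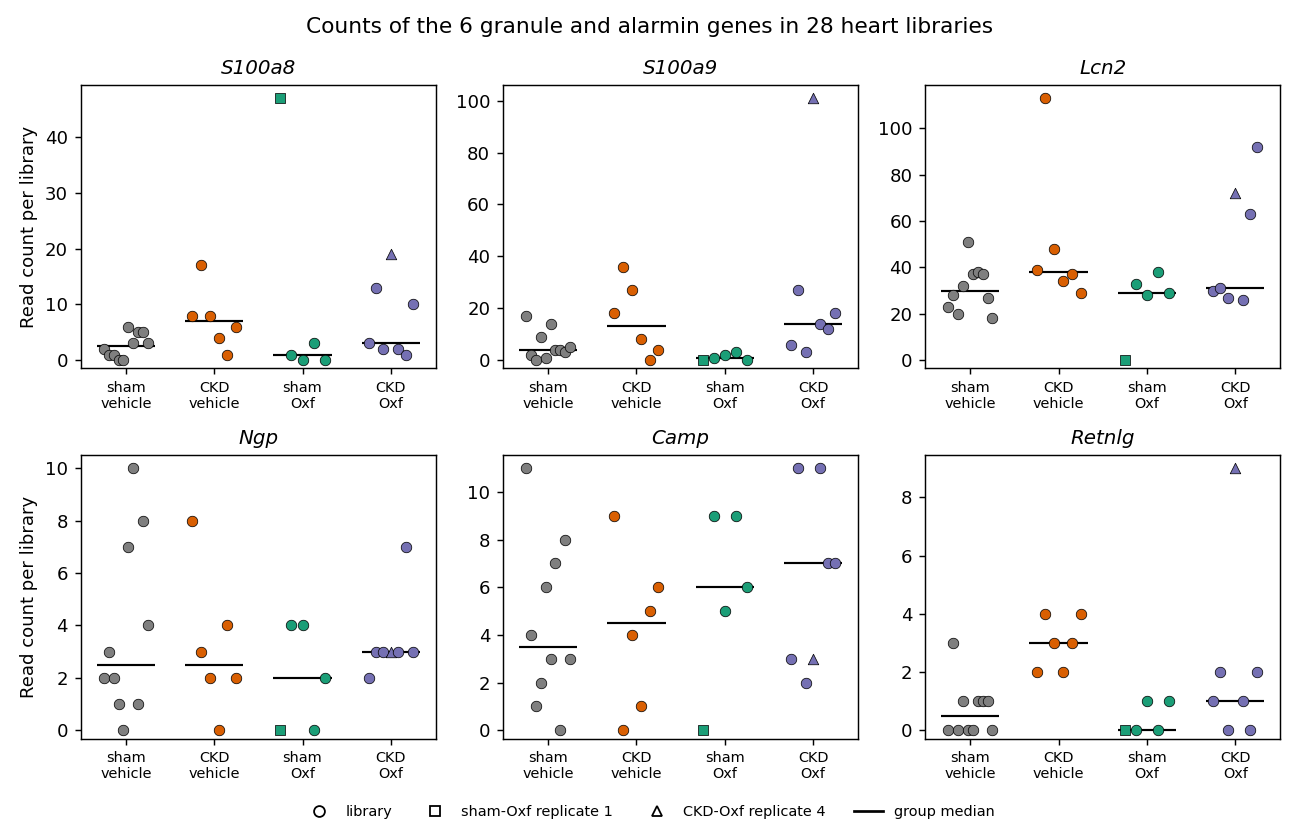
Read counts of each member in each of 28 libraries by group (linear axes that differ by gene), with horizontal lines at group medians. The square is sham-Oxf replicate 1, at 47 for S100a8 and 0 for the others, and the triangle is CKD-Oxf replicate 4, at 101 for S100a9.

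Lcn2 was counted in 27 of 28 libraries and was the most counted member in 26 of them. Sham-vehicle libraries held 18 to 51 counts (median 30), CKD-vehicle libraries 29 to 113 (median 38) and CKD-Oxf libraries 26 to 92 (median 31). The sham-Oxf libraries held 0, 33, 28, 38 and 29. All groups overlapped. The highest counts were 113 in CKD-vehicle replicate 2, 92 in CKD-Oxf replicate 7, 72 in CKD-Oxf replicate 4 and 63 in CKD-Oxf replicate 6. In CPM, which is scaled for depth, sham-vehicle replicate 4 ranked 4 at 1.43 and CKD-Oxf replicate 6 ranked 6 at 1.31. Group means were 1.16 ± 0.635 CPM in CKD-vehicle, 1.12 ± 0.538 in CKD-Oxf, 0.801 ± 0.289 in sham-vehicle and 0.672 ± 0.393 in sham-Oxf (SD). Without sham-Oxf replicate 1 the last was 0.840 ± 0.131 (n = 4), and in each step of the order the difference was smaller than the larger of the neighbouring SDs.

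The specific granule genes Ngp and Camp stayed at a few counts in every group. Ngp had 0 to 10 counts in sham-vehicle (median 2.5), 0 to 8 in CKD-vehicle (2.5) and 2 to 7 in CKD-Oxf (3), with 0, 4, 4, 0 and 2 in sham-Oxf. Camp had 0 to 11 in sham-vehicle (median 3.5), 0 to 9 in CKD-vehicle (4.5) and 2 to 11 in CKD-Oxf (7), with 0, 9, 5, 9 and 6 in sham-Oxf. Every pair of groups overlapped for both genes. Mean Ngp levels ran from 0.0523 CPM in sham-Oxf to 0.0937 in sham-vehicle, and mean Camp levels from 0.0928 in CKD-vehicle to 0.150 in sham-Oxf, each range smaller than the SD within sham-vehicle for Ngp (0.0779) and within CKD-Oxf for Camp (0.0975).

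Retnlg was the lowest member in counts, with 42 in the whole series and 10 libraries at 0. All 6 CKD-vehicle libraries held 2 to 4 counts (0.0703 ± 0.0192 CPM, SD), against 0 to 3 in the 10 sham-vehicle libraries, 5 of which were at 0 (0.0176 ± 0.0250 CPM). The sham-Oxf libraries held 0, 0, 1, 0 and 1. CKD-Oxf libraries held 0 to 9 (median 1), the 9 in replicate 4, which also led for S100a9 and, among CKD libraries, for S100a8. The CKD-vehicle and sham-vehicle ranges overlapped through sham-vehicle replicate 10, with 3 counts. At so few counts no fold is given.

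In the fit across all genes (edgeR's quasi-likelihood test), only S100a9 and Lcn2 of the 6 members passed the filter on low counts. S100a9 reached 10 counts in 5 CKD-Oxf, 3 CKD-vehicle, 2 sham-vehicle and 0 sham-Oxf libraries, so it passed mainly through the groups where it was high. For S100a9 the fitted log2 difference of CKD from sham was 1.31 ± 0.72 (SE) with vehicle, 4.11 ± 1.06 with Oxf, where sham-Oxf held 6 counts in all, and 2.71 ± 0.64 averaged over gavage. The difference with Oxf was 3.06 without CKD-Oxf replicate 4 and 4.69 without sham-Oxf replicate 4. For Lcn2 these were 0.53 ± 0.40, 0.71 ± 0.47 and 0.62 ± 0.31. Without CKD-vehicle replicate 2 the Lcn2 difference with vehicle was 0.17. The call rule (Benjamini-Hochberg adjusted p under 0.05) marked 0.00824% of all tested genes with vehicle, 0% with Oxf and 0% averaged. These contrasts chose the members, so the differences are given without a test.

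The low members were fitted only in a model with no filter. Sham-Oxf replicate 1 turned the sign for S100a8 there: CKD-Oxf against sham-Oxf stood at -1.31 with it and at 2.59 without it, and the average over gavage at 0.03 and 1.98. The fit without this library was chosen after seeing the data.

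**Figure D3:**
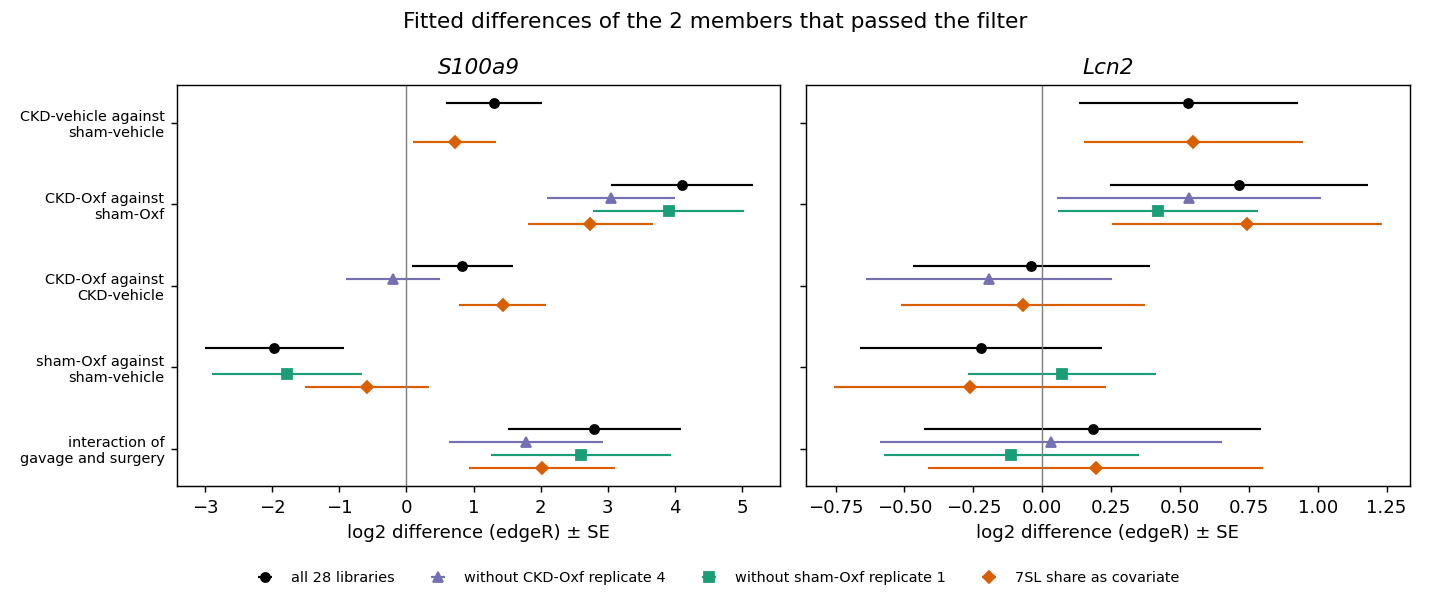
Fitted log2 differences ± SE (edgeR) of S100a9 and Lcn2 in 5 comparisons, with all 28 libraries, without a library that stands apart and with the log2 7SL share as covariate. For S100a9, CKD-Oxf against CKD-vehicle lies at 0.83 with all libraries and at -0.20 without CKD-Oxf replicate 4.

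The contrasts of Oxf with vehicle were tested, but they are only partly separate from the choice of members. The rule used the contrast of CKD-Oxf with sham-Oxf, so the same Oxf libraries enter both. In CKD, between CKD-Oxf and CKD-vehicle, 0 of the 2 tested members passed, where 0.033% of all genes did. The log2 difference of S100a9 was 0.83 ± 0.75 (SE), with an adjusted p of 0.651 in edgeR (95% interval -0.648 to 2.31), with 4 of 7 CKD-Oxf libraries above the CKD-vehicle median. Without CKD-Oxf replicate 4 the difference was -0.20 ± 0.70, and as covariates the 7SL share gave 1.44 ± 0.65 and a clock gene score 2.47 ± 1.43. Lcn2 stood at -0.04 ± 0.43 (edgeR adjusted p 0.980, interval -0.882 to 0.803), with 4 of 7 libraries below the CKD-vehicle median. At an unadjusted p under 0.05, 13.1% of all genes but neither member passed in the fit with no covariate. With the 7SL share as covariate S100a9 passed before adjustment only (edgeR p 0.0344, adjusted p 0.477). The S100a9 interval spans 0 and reaches 2.31, so a difference was not detectable with these counts and this spread, which does not show that the groups were alike.

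In sham mice, between sham-Oxf and sham-vehicle, neither tested member passed, and 0% of all genes did (12.6% at an unadjusted p under 0.05, and neither member). S100a9 stood at -1.97 ± 1.04 (SE, edgeR adjusted p 0.428, interval -4.01 to 0.0693), with 5 of 5 sham-Oxf libraries below the sham-vehicle median. These 5 include sham-Oxf replicate 1, the library with few genes counted. Without it the sham-Oxf mean was 0.0408 ± 0.0364 CPM (SD, n = 4). With single libraries left out the difference ran from -2.56 (without sham-Oxf replicate 4) to -1.65. The former passed before adjustment only (edgeR p 0.0491, adjusted p 0.396). Lcn2 stood at -0.22 ± 0.44 (edgeR adjusted p 0.878, interval -1.08 to 0.637). In the fit with no filter S100a8 stood at 2.68 (edgeR adjusted p 0.314), and at -1.22 (edgeR adjusted p 0.735) without sham-Oxf replicate 1.

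Averaged over surgery, Oxf against vehicle gave -0.57 ± 0.62 (SE) for S100a9 (edgeR adjusted p 0.634) and -0.13 ± 0.31 for Lcn2 (edgeR adjusted p 0.851). Neither passed, where 2.81% of all genes did, and neither passed at an unadjusted p under 0.05, where 23% did. The interaction asks whether the Oxf difference depends on surgery. It was 2.80 ± 1.29 for S100a9 (edgeR p 0.0376, adjusted p 1) and 0.18 ± 0.61 for Lcn2 (adjusted p 1). S100a9 thus passed only before adjustment, as 3.55% of all genes did, and 0% passed after it. The S100a9 interaction was 1.78 without CKD-Oxf replicate 4 and 3.39 without sham-Oxf replicate 4. The interaction is also the difference between the surgery contrasts, which chose S100a9, so it is not a separate line of evidence.

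The share of counts from the 7SL RNA (Rn7s1 and Rn7s2), a small cytoplasmic RNA, differed widely between libraries. No correlation of it with S100a9 over the 28 libraries is given. Of the 4 libraries highest for S100a9, 3 were among the 4 highest for the 7SL share: CKD-Oxf replicate 4 (20.6%), CKD-vehicle replicate 2 (19.1%) and CKD-vehicle replicate 3 (21.0%). Sham-vehicle replicate 5, the other library among the 4 highest for 7SL (19.9%), ranked 6 for S100a9 at 0.361 CPM. CKD-Oxf replicates 7 and 6 did not follow this: ranked 7 and 11 for S100a9, they had shares of 2.52% and 1.95%. The median share was 7.73% in CKD-Oxf and 2.70% in sham-Oxf, against 14.04% in CKD-vehicle and 10.1% in sham-vehicle. With the log2 share as covariate, S100a9 stood at 0.72 ± 0.62 (SE) for CKD against sham with vehicle, at 2.74 ± 0.93 for CKD against sham with Oxf, and at -0.59 ± 0.93 for Oxf against vehicle in sham mice. The last is nearer 0 than the -1.97 without the covariate. With a clock gene score as covariate, the S100a9 difference of CKD from sham with vehicle was 0.37 ± 1.04, against 1.31 without it. The difference with Oxf was 3.83 ± 1.06 (4.11 without the score). Averaged over gavage it was 2.10 ± 0.79 (2.71 without the score). Scores of that kind had group medians from 0.617 in CKD-vehicle to 4.42 in sham-Oxf. With the 7SL covariate Lcn2 stood at 0.55, 0.74 and -0.26 in the same 3 comparisons, close to 0.53, 0.71 and -0.22 without it.

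**Figure D4:**
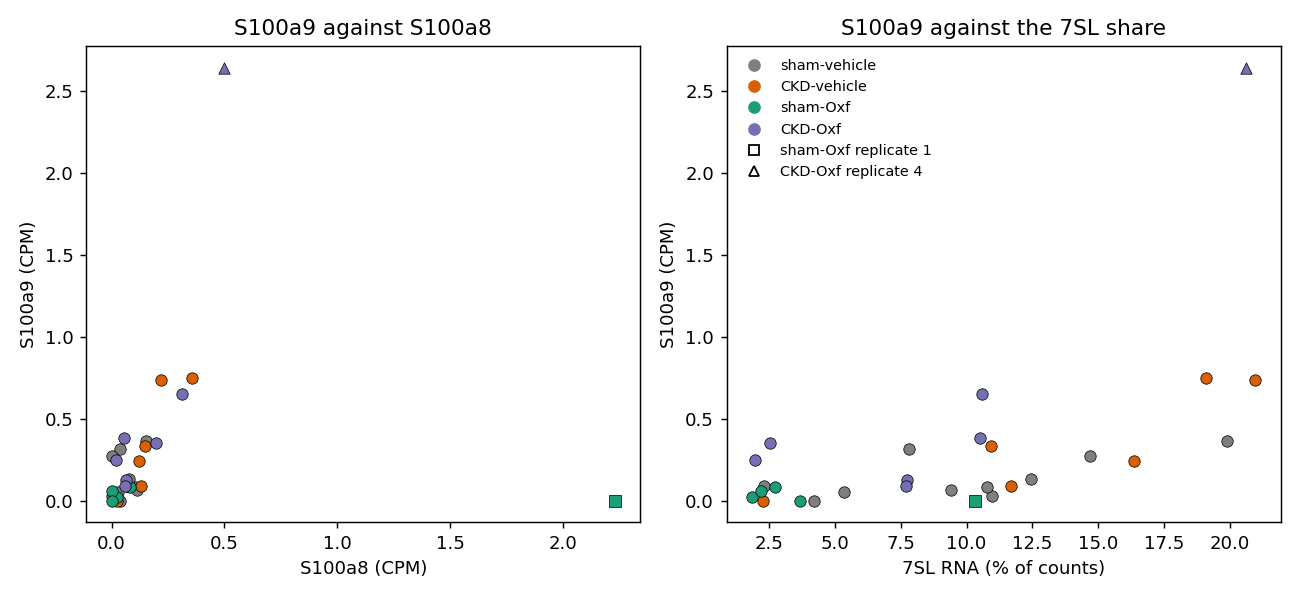
S100a9 level (CPM) in each of 28 libraries against the S100a8 level (CPM, left) and against the share of counts from 7SL RNA (%, right), coloured by group. CKD-Oxf replicate 4 is highest for S100a9 at 2.64 CPM with a 7SL share of 20.6%, and sham-Oxf replicate 1 holds 2.23 CPM of S100a8 with no S100a9.

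Some defining genes of neutrophils were at or near 0 and others were counted in most libraries. Ly6g, the surface antigen of mouse neutrophils, had 1 count in all 28 libraries together. The cystatin gene Stfa2l1 was at 0 in 24 libraries and Mmp8, the neutrophil collagenase, in 13. The interleukin-8 receptor gene Cxcr2 had 244 counts and was at 0 in 2 libraries, the formyl peptide receptor gene Fpr1 had 192 and was at 0 in 3, and the lectin gene Clec4d had 667 and was at 0 in none. The 10 neutrophil markers, which include Retnlg, summed to 4.603 to 10.4 CPM in CKD-Oxf, 3.90 to 8.31 in sham-Oxf, 5.32 to 8.73 in CKD-vehicle and 4.37 to 8.77 in sham-vehicle. Most of that came from Mmp9 (2.77 CPM on average) and Csf3r (2.68 CPM), which other cells also express. CKD-Oxf replicate 4, highest for S100a9, was at 7.22 CPM, the median of its group. In bulk tissue, fewer cells of a type and less RNA per cell cannot be told apart.

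Markers of marrow precursors were as low. Mpo, Ctsg and Ms4a3 on the primary granule list were at 0 in 22, 25 and 25 libraries, and 0 of its 7 genes could be tested. The most abundant on that list were Prg2 (0.0893 CPM on average), Prtn3 (0.0838) and Elane (0.0294). Prg2 encodes a granule protein of eosinophils, not of neutrophils. The 10 marrow markers, among them Ngp and Camp, summed to at most 1.05 CPM in the sham-vehicle, CKD-vehicle and sham-Oxf groups, and to 0 in sham-Oxf replicate 1. CKD-Oxf replicate 7 reached 4.57 CPM, of which lactoferrin (Ltf, an iron-binding protein of specific granules) gave most, with 206 of the 327 Ltf counts in the series. CKD-Oxf replicate 4 was at 1.23 CPM and had the 37 counts that were the maximum for the chitinase-like gene Chil3. It also had the highest sum of platelet markers, 157.8 CPM against a group median of 52.2, and of liver markers, 118.4 against 8.34. Monocyte and macrophage markers were at 207 CPM in this library (group median 138) and at 269 in CKD-vehicle replicate 3, the highest of all. They were at 173 CPM in CKD-vehicle replicate 2 and at 138 in CKD-Oxf replicate 2, ranked 2 and 4 for S100a9. The part of these cells in the S100a9 counts was not tested.

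The wider pathway was described with 120 listed genes that had a row, of which 81 could be tested. Of these, 0 passed in 6 of the 7 contrasts, and 3 passed for Oxf against vehicle averaged over surgery. Before adjustment 12 were higher and 14 lower there, or 32.1%, against 23% of all genes, and their median log2 difference was 0.05, against 0.00 for all genes tested. In CKD-Oxf against CKD-vehicle 8 were higher and 6 lower before adjustment (17.3%, against 13.1% of all genes). In sham-Oxf against sham-vehicle these were 4 and 13 (21%, against 12.6%).

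Mxd1, a repressor of MYC target genes that rises as granulocytes mature, was the 1 gene that rose with Oxf, by a log2 difference of 0.36 ± 0.09 (SE, edgeR adjusted p 0.0327). Sham mice had 10.7 ± 1.84 CPM with Oxf and 7.80 ± 0.803 with vehicle, and CKD mice 8.38 ± 1.35 and 6.99 ± 0.722 (SD). The S100 gene S100a11 fell by 0.67 ± 0.18 (edgeR adjusted p 0.0431), with 8.13 ± 4.25 and 13.4 ± 3.12 CPM in sham mice and 8.09 ± 3.26 and 12.5 ± 2.39 CPM in CKD mice, Oxf before vehicle. Hmgb1, a nuclear protein that acts as an alarmin when released, fell by 0.47 ± 0.13 (edgeR adjusted p 0.0473), with 55.7 ± 14.2 and 65.8 ± 16.6 CPM in the vehicle groups and 40.8 ± 5.26 and 46.9 ± 13.97 in the Oxf groups, sham before CKD. The ranges of the Oxf and vehicle libraries overlapped for all 3 genes. All 3 calls depended on the processing: 0 list genes passed in the fit with no filter, and the number passing ran from 0 to 14 when single libraries were left out, 14 of them without CKD-Oxf replicate 4. Of 38 alternatives, 25 called Mxd1 (0.29 to 0.42), 17 S100a11 (-0.84 to -0.55) and 14 Hmgb1 (-0.57 to -0.21). The Oxf groups also had higher clock scores, with medians of 4.42 (sham) and 3.68 (CKD) against 2.05 and 0.617 with vehicle.

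Among the other S100 genes, 9 of 14 were tested. Oxf against vehicle was below 0 in all 9 (median -0.57), and 6 had an unadjusted p under 0.05, where 23% of all genes did. The most abundant were S100a1, which regulates calcium cycling in cardiomyocytes (-0.71 ± 0.22, edgeR adjusted p 0.0669), and S100a10, the partner of annexin A2 (-0.57 ± 0.20, edgeR adjusted p 0.0915).

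No receptor or inducer of the members passed the test. Of 14 tested receptor and co-receptor genes for alarmins and LCN2, 0 passed, with 1 higher and 2 lower before adjustment for Oxf against vehicle. The most abundant were the scavenger receptor Cd36 (-0.55 ± 0.21, edgeR adjusted p 0.130), the S100A9 receptor basigin, Bsg (-0.28 ± 0.20, edgeR adjusted p 0.424), and the resistin receptor Cap1 (-0.02 ± 0.08, edgeR adjusted p 0.916). The alarmin receptor genes Tlr4 and Ager (RAGE) lay in opposite directions. Tlr4 stood at -0.41 ± 0.13 (edgeR adjusted p 0.0696) and Ager at 0.81 ± 0.26 (edgeR adjusted p 0.0704). On the list around Lcn2 induction, 7 of 11 genes had an unadjusted p under 0.05 in this contrast, where 23% of all genes had one. After adjustment 0 passed. Not all of the list are inducers, since Nfkbia (0.20 ± 0.14) and Socs3 (0.23 ± 0.16) encode pathway inhibitors. All 11 listed genes were above 0 (median 0.23). Among them Stat3 was at 0.05 ± 0.07 (edgeR adjusted p 0.752), Nfkb1 at 0.21 ± 0.07 (edgeR adjusted p 0.0773) and the mineralocorticoid receptor Nr3c2 at 0.32 ± 0.13 (edgeR adjusted p 0.139).

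The lists of granule, surface and maturation, granulopoiesis and attractant genes gave 0 calls apart from Mxd1. Of the specific and gelatinase granule genes 9 of 14 were tested, led by Lyz2 (-0.60 ± 0.23 for Oxf against vehicle, edgeR adjusted p 0.120), haptoglobin Hp (0.21 ± 0.74, edgeR adjusted p 0.907) and the oxidase subunit Cyba (-0.33 ± 0.15, edgeR adjusted p 0.184). Of 22 neutrophil surface and maturation genes with a row 10 were tested, with Itgb2, the integrin beta chain of leukocytes, at 0.35 ± 0.23 (edgeR adjusted p 0.361). Of the granulopoiesis genes, Cxcl12, which retains neutrophils in the marrow, was at 0.00 ± 0.13 (edgeR adjusted p 0.999), and the factors Cebpa and Cebpd were at 0.35 ± 0.41 and -0.12 ± 0.20 (edgeR adjusted p 0.663 and 0.771). Of the attractants, the platelet chemokines Ppbp and Pf4 were at -0.12 ± 0.41 and -0.24 ± 0.26, and the complement receptor C5ar1 at -0.09 ± 0.16 (edgeR adjusted p 0.901, 0.623 and 0.796).

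Retnla and Retn, relatives of Retnlg made by macrophages and fat, had mean levels of 2.70 and 2.59 CPM and stood at 0.02 ± 0.50 and -0.08 ± 0.82 (edgeR adjusted p 0.991 and 0.971). The heat shock genes among the other alarmins, Hspd1 and Hspa1b, were at -0.50 ± 0.17 and -0.997 ± 0.405 (edgeR adjusted p 0.0826 and 0.142).

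Genes whose pattern was most like that of the 2 tested members were ranked by Spearman rho of log2 CPM over the 28 libraries, after group means were subtracted. For S100a9 the 5 highest of 24272 genes were Lnpk (0.809), Zfp943 (0.807), Zfp266 (0.799), Cript (0.793) and Ube3a (0.789), none of them a granule gene. For Lcn2 they were Gm5513 (0.841), Kctd4 (0.839), Lgi1 (0.825), and Cbx3-ps7 and RP23-89C10.1 (0.807 each). The libraries share depth and composition in all of these genes, and the values are descriptions.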

How the data were processed

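Ventricular RNA of 28 mice was sequenced, 1 library per mouse. The authors deposited raw counts per gene. Per the submitters' processing notes, these involved mm10, FastQC 0.11.7, MultiQC 1.9, STAR 2.6.1d and featureCounts 1.6.3 (Subread). The annotation, the counting options and the use of strand are not given in the sources used here. Groups came from the labels, and replicates were numbered in accession order within a group, so numbers pair nothing. Libraries held 19.8 to 65.4 M counts, and p-values measure the spread between these mice.

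TMM factors and the robust quasi-likelihood F test of edgeR 4.0.16 (R 4.3.3) were applied in 1 fit of 4 group means with 7 contrasts and no covariate. The filterByExpr function (by group, minimum count 10) left 24273 genes, over which p-values were adjusted by Benjamini-Hochberg (threshold 0.05). The SE of a log2 difference is its size divided by the square root of F, and intervals are at 95%. Log2 CPM used a prior count of 2. The fit was tested on simulated data, with changes set only in CKD-Oxf and only in genes with a mean count above 10. That simulation did not cover S100a8, Ngp, Camp and Retnlg. Alternatives were DESeq2 1.42.0, voom with weighted samples (limma 3.58.1), scaling by upper quartiles or by the DESeq2 size factors, other filters, the compared groups only, a clock score (night minus day clock genes) or the log2 7SL share as covariate, and each library left out. Leaving out sham-Oxf replicate 1, with CKD-Oxf replicate 4 or with no filter, was added after seeing the data.

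The members and gene lists were chosen with earlier results of these data known. The text names all 6 members, list genes past the threshold, the 3 most abundant genes of most lists, and the 5 genes most like each tested member. CKD-Oxf replicates 4 and 7 and single genes such as Ltf, Chil3, Ly6g, Csf3r, Tlr4 and Ager were named after their values were seen. Of 121 pathway genes, 120 had a row. The values of 1 list gene are not reported here.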

Additional observations from a re-analysis of the deposited data

Results flagged for a closer look

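For the 6 members in the 4 groups, 24 cases, the gap between an extreme library and the one closest to it was divided by the whole range of CPM in the group. In 6 cases this ratio exceeded the 95% limit of Dixon's test. A rate of 1 in 20 gives about 1.2, but it holds for independent normal values. These counts are low and skewed, and the same libraries recur across genes, so no excess is read from the 6. Sham-Oxf replicate 1 was highest for S100a8 (0.964, 47 counts) and lowest for Lcn2 (0.723, a count of 0). CKD-Oxf replicate 4 was highest for S100a9 (0.779, 101 counts) and for Retnlg (0.795, 9 counts). CKD-Oxf replicate 6 was highest for Ngp (0.571, 7 counts), and sham-vehicle replicate 10 was highest for Retnlg (0.62, 3 counts).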

How the results depend on the processing

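No member passed in any of the 4 tested contrasts under any alternative run (0 in each). No paired analysis was possible because the labels carry no shared replicate numbers. Signs that turned are these. S100a9, CKD-Oxf against CKD-vehicle (0.83), was -0.22 without sham-Oxf replicate 1 and CKD-Oxf replicate 4, and ran from -0.20 to 1.197 with single libraries left out. It was 2.47 with the clock score, 1.44 with the 7SL share and 0.39 with voom. Its average over surgery (-0.57) was 0.74 with the clock score and 0.43 with the 7SL share. Lcn2 turned sign in all 4 tested contrasts, and each value of the main fit was smaller than its SE. In CKD (-0.04) it was 0.0475 with voom, 0.12 with the clock score, -0.208 without both libraries and -0.19 to 0.31 with single libraries left out. In sham (-0.22) it was 0.0932 with voom, 0.0718 without both libraries, 0.0519 with no filter and without sham-Oxf replicate 1, and -0.42 to 0.07 with single libraries left out. Averaged (-0.13) it was 0.0703 with voom, 0.0024 with the clock score and -0.23 to 0.0422 with single libraries left out. Its interaction (0.18) was -0.0457 with voom, -0.28 without both libraries, -0.12 with no filter and without sham-Oxf replicate 1, and -0.11 to 0.53 with single libraries left out. With no filter and without sham-Oxf replicate 1, S100a8 was -1.22 in sham, -0.61 averaged and 1.22 for the interaction (2.68, 1.34 and -2.67 with it), and the interactions of Camp and Retnlg were -0.12 and -0.0783.

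Pathway genes called for Oxf against vehicle averaged over surgery (3) were 11 with DESeq2, 25 with voom, 0 with no filter and 0 to 14 with single libraries left out. In CKD-Oxf against CKD-vehicle (0) they were 11 with voom and 0 to 3 with single libraries left out. For CKD against sham averaged (0) they were 2 with DESeq2 and 1 with voom. The cause was not tested. All genes called for Oxf averaged (681) ran from 0 to 5336 over the alternatives, and for CKD-Oxf against CKD-vehicle (8) from 0 to 3639. Counts of 0 to 10 in most libraries limit S100a8, Ngp, Camp and Retnlg to a description.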
